A study of Mus musculus and Homo sapiens with 22 samples.

Results

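The list described here holds the places on the genome where a FLAG antibody found overexpressed PROX1 in Hep3B cells, an established human hepatocellular carcinoma line. Its members are all peaks of the Hep3B FLAG list that lie on chromosomes 1 to 22, which were 14247 of the 14369 peaks in the list and of the 105059 peaks in the 3 lists of the series. The 3 FLAG samples and the 3 control samples with rabbit IgG came from cells carrying a doxycycline-inducible human PROX1 lentivirus, selected with 2 µg/ml puromycin for 2 days and induced with 2 µg/ml doxycycline for 2 days. The IgG cells thus overexpressed PROX1 as well, and no uninduced culture with the FLAG antibody was used here. The FLAG antibody sees the tagged transgene product and not the PROX1 of the cell itself. The authors combined the 3 FLAG samples into 1 list, so the depth of a sample and the spread between samples are unknown, and all values below describe that list without a test. Intervals in parentheses are 95% Wilson intervals and cover counting error only. A list of peaks holds no expression values, so the label of the cell line could not be checked against markers.

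PROX1 is a homeodomain transcription factor that marks hepatocytes, lymphatic endothelium, lens and parts of the nervous system. In liver the study describes it as a repressor that works with histone deacetylases and the NuRD complex. In neural and lymphatic endothelial cells, according to the study, it mainly activates genes. In CUT&RUN, an antibody directs a nuclease to the chromatin that a protein sits on, and the released fragments are sequenced. A peak is a stretch where these fragments pile up, and its summit is the position of the strongest signal. The IgG samples measure what is released without a specific antibody, and the study describes the binding sites as identified relative to IgG. The stated peak calling command names no control, and a separate IgG list was not used here.

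The sequence under some of the strongest summits is printed here as examples, which need not be typical of the list. Counts over all peaks follow further below. Given first, as 100 bp of the plus strand of hg38 around each summit, are the 5 highest promoter peaks for which this window overlaps no annotated UTR. The window of the higher SF3B2 peak overlaps one and was left out. Capitals mark CCAAT or its reverse complement ATTGG, the letters of the NF-Y box, and GGGGCGGGG or its reverse complement, the letters of the SP/KLF family.
CCM2 (chr7:44999934-45000033): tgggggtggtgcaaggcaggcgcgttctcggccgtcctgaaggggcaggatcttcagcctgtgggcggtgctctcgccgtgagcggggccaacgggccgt
ENSG00000267011 (chr19:4471679-4471778): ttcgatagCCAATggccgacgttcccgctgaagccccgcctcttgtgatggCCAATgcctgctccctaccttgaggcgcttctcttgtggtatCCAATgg
MYO1F (chr19:8525801-8525900): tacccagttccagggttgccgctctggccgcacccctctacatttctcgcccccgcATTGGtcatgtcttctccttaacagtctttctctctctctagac
ESRRA (chr11:64305394-64305493): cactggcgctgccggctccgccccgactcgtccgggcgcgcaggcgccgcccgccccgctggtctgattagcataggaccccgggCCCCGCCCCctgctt
GPSM3 (chr6:32195583-32195682): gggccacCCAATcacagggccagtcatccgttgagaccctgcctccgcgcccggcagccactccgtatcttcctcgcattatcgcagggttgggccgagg
The first window, 204 bp upstream of CCM2, held none of the letters searched. The second, 236 bp upstream of the long non-coding RNA gene ENSG00000267011 and 568 bp upstream of HDGFL2, held CCAAT at 3 places. The MYO1F window lay in an intron, 771 bp downstream of the nearest annotated start, and held the box on the minus strand. That start is not of a protein-coding transcript, and the nearest protein-coding start was that of ZNF414, 11684 bp away. The ESRRA window held an SP/KLF match near its end, and the GPSM3 window held 1 CCAAT.

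Of the highest peaks away from promoters, chosen and marked in the same way, 4 are shown.
ZFAND3-DT (chr6:37791597-37791696): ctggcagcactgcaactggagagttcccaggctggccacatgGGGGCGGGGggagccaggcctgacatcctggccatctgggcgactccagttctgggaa
ATP9A (chr20:51767236-51767335): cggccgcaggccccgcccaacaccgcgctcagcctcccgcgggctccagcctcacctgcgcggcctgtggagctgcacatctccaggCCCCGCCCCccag
ENSG00000274033 (chr19:20052300-20052399): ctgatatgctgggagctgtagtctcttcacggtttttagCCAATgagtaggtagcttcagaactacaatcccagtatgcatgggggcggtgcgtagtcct
ENSG00000263709 (chr17:29148886-29148985): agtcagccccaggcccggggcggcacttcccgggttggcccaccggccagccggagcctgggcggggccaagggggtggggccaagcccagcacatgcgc
These windows carry the name of the nearest annotated start, which does not make that gene a target. The first lay 28080 bp upstream of the coding start of ZFAND3, and the second in the first part of ATP9A, 1042 bp downstream of its start and so just outside the promoter limit of 1000 bp. The third lay 12845 bp upstream of ZNF682 and the fourth 8518 bp upstream of MYO18A. The mean GC content of the 100 bp windows was 66.1% over all promoter peaks and 50.3% over all other peaks, against 49.1% and 44.3% in windows 1000 bp to either side.

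Peaks had a median width of 635 bp (interquartile range 450 to 899, range 107 to 4134) and covered 10.2 Mb. The −log10 p at the summit, which the peak caller assigned against its own background model and by which peaks are ranked here, ran from 3.93 to 11.8 with a median of 6.45. The upper end was thinly filled: 31 peaks reached 10 or more, and 30 of these lay at promoters. The −log10 q could not separate the strongest peaks, since 1209 of them shared its highest value of 3.74. Stronger peaks were also broader, with a median width of 872 bp in the strongest 25% of the list and 553 bp in the weakest 25%.

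Most of the peaks lay at promoters, here meaning a summit within 1000 bp of the start of any annotated transcript. These were 9430 peaks, 66.2% of the list (65.4 to 67.0), while 7.35% of autosomal bases lie that close to a start. Promoter peaks were wider and higher than the other 4817 peaks, with medians of 705 against 513 bp in width and 6.71 against 6.06 in −log10 p. For 82.4% of them the nearest start belonged to a protein-coding gene, and 1159 promoter peaks (12.3%) had no protein-coding start within 1000 bp. Of the peaks away from promoters, 55.3% lay in introns, 38.6% between genes, 2.45% in non-coding exons, 2.24% in UTRs and 1.45% in coding exons. Their median distance to a protein-coding start was 24255 bp, and 964 of them (20.0%) lay more than 100 kb away.

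Summits did not sit on the start itself but just before it. Of 7538 peaks within 1000 bp of the representative start of a protein-coding gene, 78.5% (77.5 to 79.4) lay upstream. The median position was 84 bp upstream, with quartiles at 174 and 14 bp upstream. More than 4 times as many summits lay in the 200 bp before the start as in the 200 bp after it, 57.6% against 13.5%. This is the stretch that holds the core and proximal promoter and, in active genes, is free of nucleosomes.

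**Figure D1:**
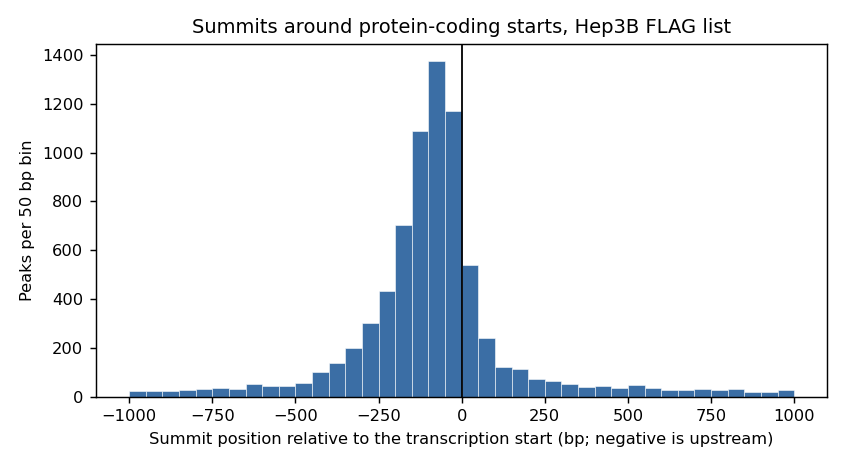
Number of peaks per 50 bp bin by the position of the summit relative to the representative start of the nearest protein-coding gene, negative values being upstream. The fullest bin, from 100 to 50 bp upstream, held 1376 summits, and counts dropped at the start itself.

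A protein-coding gene was counted as carrying a promoter peak when a summit lay within 1000 bp of the start of one of its protein-coding transcripts. This held for 8630 of 18773 autosomal genes, or 46.0%, the share set beside each group of genes below. This share differed by promoter type, as given next. The median −log10 p of the highest promoter peak was 6.94 over these genes. A single gene lay within reach of 6976 peaks, 2 genes of 1233 peaks, and 3 or more of 62 peaks.

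The kind of promoter went along with these counts. Promoters were called CpG-rich when the 500 bp to either side of the representative start had a GC content of at least 55% and an observed over expected CpG ratio of at least 0.65. Such promoters are typical of housekeeping genes, while CpG-poor promoters are common in genes used by few tissues. A promoter peak was found at 62.9% of the 10809 genes with a CpG-rich promoter and at 23.0% of the 7964 others. Genes that form head-to-head pairs, with opposite strands and starts at most 1000 bp apart, carried one in 1440 of 1784 cases (80.7%, 78.8 to 82.5). Among CpG-rich genes the shares were 82.4% within such pairs and 60.0% outside them. Both genes of a pair can be reached by the same peak.

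Groups of the machinery of gene expression and protein turnover had shares well above that of all genes. Among the aminoacyl-tRNA synthetases, which load tRNAs with amino acids, 32 of 35 genes carried a promoter peak (91.4%, 77.6 to 97.0), led by EARS2 at a −log10 p of 8.93, and IARS1, NARS2 and RARS1 did not. Of the proteasome subunits 40 of 47 did (85.1%), with PSMD8 at 9.598 and PSMD3 at 9.24. Of the Mediator subunits, which link transcription factors to RNA polymerase II, 24 of 28 did (85.7%), and MED27, MED4, MED6 and MED9 lacked a peak. The spliceosome list reached 61 of 73 genes (83.6%). Its member SF3B2, a part of the U2 particle, held the third highest peak of the whole list, chr11:66051515-66052877, at 11.5. The 12 spliceosome genes without a peak included HNRNPH1, U2AF1 and several HNRNPCL copies. Near-identical sequence can leave reads unplaced, and its part in these absences was not tested.

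Ribosomal proteins followed, with 62 of 78 mitochondrial genes (79.5%) and 63 of 82 cytosolic genes (76.8%). RPS16 stood highest among the cytosolic ones at 9.51 and MRPL34 among the mitochondrial ones at 9.19. Translation initiation factors carried a peak in 35 of 44 cases (79.5%), with EIF5A at 9.24. In the respiratory chain 67 of 92 genes did (72.8%), and COX8A, a subunit of cytochrome c oxidase, reached 9.63. The median −log10 p of the genes with a peak lay between 6.76 and 7.36 in the ribosomal, proteasome, Mediator, spliceosome, initiation factor, synthetase and respiratory chain lists, close to the 6.94 of all such genes.

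Cell cycle groups were covered to a like extent. Of the mitosis genes 27 of 33 carried a promoter peak (81.8%, 65.6 to 91.4), with the phosphatases CDC25A at 8.98 and CDC25C at 8.77. The median −log10 p of the genes with a peak in this list was 7.79, against 6.94 for all genes with one. BIRC5, CCNA2, ESPL1, FOXM1, NDC80 and PLK1 had none. Replication genes did so in 32 of 40 cases (80.0%), among them RPA3, a subunit of the single-strand binding complex, at 9.76 and MCM3 of the replicative helicase at 9.17. Genes that govern entry into S phase reached 28 of 37 (75.7%). CDKN2D, an inhibitor of cyclin D kinases, led with 9.57. The MYC antagonists MXD1 and MXD4 stood at 9.02 and 8.85, and CCND1, CCNE1, CDKN1C and RB1 lacked a peak. MYC itself carried a promoter peak 2767 bp wide, chr8:127733885-127736651, at 8.59, which placed it at the 92.6th percentile of the list.

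Stress and death pathways also had shares above the 46.0% of all genes. In the unfolded protein response, which restores folding in the endoplasmic reticulum, 25 of 27 genes carried a promoter peak (92.6%, 76.6 to 97.9). The sensor kinase EIF2AK3 stood at 8.97 and the factor ATF4 at 8.70, and HERPUD1 and PDIA3 had no peak. The apoptosis list reached 23 of 33 (69.7%). BCL2L1, an inhibitor of apoptosis, stood highest at 9.47, while BBC3, PMAIP1, BCL2, FAS and both TNFRSF10A and TNFRSF10B lacked a peak. Autophagy genes followed with 21 of 29 (72.4%) and the chaperonin and heat shock list with 51 of 70 (72.9%). In the latter, the subunits of the cytosolic chaperonin TCP1, CCT3 and CCT7 stood at 8.83, 8.77 and 8.73. The inducible HSP70 genes HSPA1A and HSPA1B had no promoter peak, and neither did their neighbour HSPA1L. The part of the mapping filter in these absences was not tested.

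The Hippo pathway, a kinase cascade that limits organ size and holds the coactivators YAP1 and TAZ in the cytoplasm, was the most completely covered list. A promoter peak was present at 23 of its 24 genes (95.8%, 79.8 to 99.3). The upstream regulator NF2 stood highest at 9.66, followed by VGLL4, a partner of the TEAD factors, at 8.37 and the kinase activator MOB1B at 7.85. The kinases LATS1 and LATS2 had values of 5.75 and 6.62, and all 4 TEAD factors lay between 5.60 for TEAD2 and 5.86 for TEAD4. Even so, the peaks were mostly weak. Their median −log10 p of 5.95 was below the 6.94 of all genes with a promoter peak and the lowest among the lists covered above 46.0%. The one gene without a promoter peak was YAP1, whose nearest summit lay 31984 bp from its start. WWTR1, which encodes TAZ, carried a peak at 6.42.

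In the Notch pathway, which directs liver progenitors towards the biliary fate, 20 of 31 genes carried a promoter peak (64.5%, 46.9 to 78.9). The members differed by role. Subunits of the gamma-secretase that cuts the receptor stood highest, with APH1A at 9.19 and PSENEN at 8.91, followed by the ligand JAG1 at 8.83 and the DNA-binding partner RBPJ at 8.36. None of the 4 receptor genes NOTCH1, NOTCH2, NOTCH3 and NOTCH4 had a promoter peak, and neither did the fringe genes LFNG, MFNG and RFNG, which modify the receptors. The target HES1 carried a peak at 6.52. The Wnt list, at 19 of 37 (51.4%), lay close to all genes, with the receptor FZD5 at 8.80 and no peak at CTNNB1, which encodes beta-catenin.

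The liver's own genes split by role. Of the hepatocyte transcription factors, 26 of 36 carried a promoter peak (72.2%, 56.0 to 84.2), among them FOXA3 at 8.92, CEBPA at 8.70, FOXA1 at 7.23 and FOXA2 at 6.25. The median −log10 p over these 26 was 6.35, below the 6.94 of all genes with a promoter peak. HNF4A, NR1H4, NR1I2, NR1I3, PPARA and RXRA were among those without one, and the summit nearest to HNF4A lay 14928 bp from its starts. The following lists of hepatocyte products had shares below the 46.0% of all genes. A promoter peak was found at 3 of 32 secreted plasma proteins (9.38%, 3.24 to 24.2), namely SERPINA6 at 6.41, LRG1 at 6.16 and AMBP at 5.16, and at none of the others, ALB, AFP, TTR and SERPINA1 included. The summit nearest to AFP, the fetal albumin used as a marker of liver cancer, lay 10335 bp away. Complement and coagulation genes carried one in 9 of 39 cases (23.1%), bile acid genes in 5 of 22 (22.7%), urea cycle and amino acid breakdown genes in 8 of 30 (26.7%) and cytochrome P450 genes in 8 of 55 (14.5%). Where a complement gene had a peak it could be high, as at C3 with 8.36 and F5 with 8.26. CPS1, the first enzyme of the urea cycle, stood at 7.58.

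Promoter type moved with this split. Of the 32 plasma protein genes 1 had a CpG-rich promoter, and none of the 39 complement and coagulation genes did. Among the 31 plasma protein genes with another promoter 3 carried a peak, and among the 39 coagulation genes 9 (23.1%). With another promoter, 4 of 16 bile acid genes, 3 of 21 urea cycle and amino acid breakdown genes and 2 of 40 cytochrome P450 genes did. These counts are to be read against the 23.0% of all genes of that kind. The part of promoter type in the difference between lists was not tested further.

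The list of lipoprotein and cholesterol genes reached 21 of 34 (61.8%, 45.0 to 76.1). By promoter type these were 15 of 17 genes with a CpG-rich promoter and 6 of 17 others. Among its sterol synthesis genes stood the synthase HMGCS1 at 8.96, the epoxidase SQLE at 8.53 and the cyclase LSS at 8.05. Both sterol-regulated factors carried a peak, SREBF1 at 7.27 and SREBF2 at 7.53. The apolipoproteins APOA1, APOA4, APOA5, APOB, APOC2, APOC3 and APOH and the transporters ABCG5 and ABCG8 lacked one. APOE at 7.86, APOM at 7.85, APOA2 at 6.29 and APOC1 at 5.41 were the apolipoproteins of the list with a peak.

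Of the corepressor genes, which include partners through which PROX1 is known to act, 20 of 28 carried a promoter peak (71.4%, 52.9 to 84.7). SIN3A, a scaffold for histone deacetylases, stood at 9.50, GATAD2A of the NuRD complex at 8.91 and the chromatin remodeller SMARCA4 at 8.67. HDAC1 had 6.94, HDAC2 6.38 and HDAC3 5.57, and the NuRD subunit gene CHD4 had no promoter peak. Nuclear receptors, at 25 of 46 (54.3%, 40.2 to 67.8), were not set apart from all genes, but ESRRA held the fifth highest peak of the list at 10.96, and RXRB stood at 9.39. The circadian clock list reached 18 of 24 (75%), with the repressor NR1D1 at 9.21 and PER1 at 8.61.

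Other lists, given from the highest share to the lowest, ran from nuclear pore genes to keratin-associated protein genes. Nuclear pore genes carried a promoter peak in 15 of 21 cases (71.4%), with NUP98 at 8.62, and subunits of the proton pump that acidifies lysosomes in 15 of 22 (68.2%), with ATP6V1F at 8.81. Immediate early genes, which respond to growth signals within minutes, reached 20 of 30 (66.7%), with KLF10 at 9.63 and EGR1 at 8.56 and no peak at FOS. Biliary identity genes reached 16 of 27 (59.3%, 40.7 to 75.5), and KRT7 and SPP1 lacked a peak. Oncofetal and tumour genes, at 17 of 33 (51.5%), and genes of glucose production and sensing, at 11 of 22 (50%), lay near all genes. In the latter, pyruvate carboxylase (PC) stood at 9.45, while the gluconeogenic enzyme genes PCK1 and G6PC1 had no promoter peak. Few collagens (3 of 42, with COL1A1 at 7.99), potassium channel genes (5 of 93), clustered protocadherins (1 of 53) and keratin-associated protein genes (1 of 94) carried one.

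**Figure D2:**
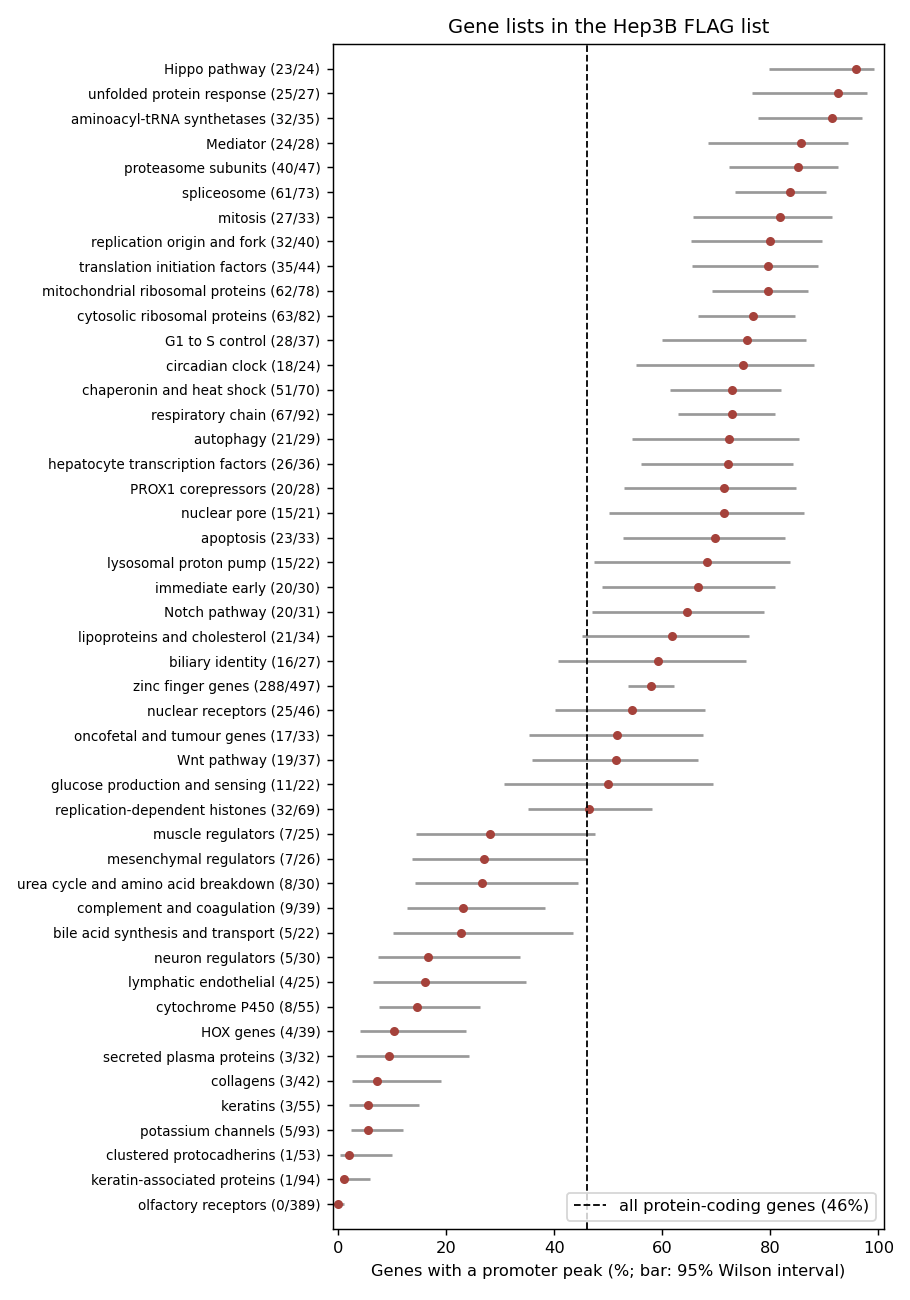
Share of genes with a promoter peak for each of the 47 gene lists, with 95% Wilson intervals, counts in parentheses and a dashed line at the 46.0% of all autosomal protein-coding genes. Machinery, cell cycle and stress lists lie above the line, plasma protein, coagulation, bile acid and other tissue-restricted lists below it.

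Of the 47 lists, 24 had an interval above 46.0% and 14 one below it. For lists rich in CpG promoters, the 62.9% of all CpG-rich genes is the closer measure. Among CpG-rich genes alone, the shares were 65.4% in the Notch, 66.7% in the immediate early and 69.2% in the apoptosis and corepressor lists. Below that measure lay the Wnt list with 51.5% and the oncofetal and tumour list with 50% of their CpG-rich genes. The shares of CpG-rich genes were 96.0% for aminoacyl-tRNA synthetases, 94.4% for the spliceosome and 91.3% for the unfolded protein response. The part of promoter type in these shares was not tested. The lower end held genes of other lineages and of large tissue-restricted families. Regulators of neurons carried a promoter peak in 5 of 30 cases (16.7%), led by DLX2 at 7.02, and lymphatic endothelial genes in 4 of 25 (16.0%), led by EFNB2 at 9.17. Regulators of mesenchyme did so in 7 of 26 (26.9%), among them RUNX1 at 8.58, and of muscle in 7 of 25 (28%), among them SRF at 8.78 and MEF2D at 8.67, which are used well beyond muscle. PRRX1, a mesenchymal factor, had none, with the nearest summit 131023 bp away. PPARG, the adipocyte factor, carried a weak one at 5.31, at the 14.6th percentile. Of 55 keratins 3 had a promoter peak, KRT8 and KRT18 of simple epithelia at 6.88, which is the same peak, and the bile duct keratin KRT19 at 5.66. SOX9, a factor of bile ducts and cartilage, stood much higher, at 8.28 and the 88.6th percentile. No promoter peak lay at any of 389 olfactory receptor genes, for which the interval ends at 0.978%.

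Some of these lists held many CpG-rich promoters, and the part of promoter type in their low counts was not tested. CpG-rich promoters made up 27 of 39 HOX genes, 51 of 93 potassium channel genes and 22 of 30 neuron regulators, but a promoter peak was found at 4, 1 and 5 of these, or 14.8%, 1.96% and 22.7%, where 62.9% of all CpG-rich genes had one. The HOX genes with a peak included HOXA5 at 8.18, HOXA10 at 6.09 and HOXA4 at 5.67.

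Sorting genes by the letters of their symbols, without any list of function, gave 146 families of at least 15 genes. The 10 with the highest shares were CEP with 34 of 38 genes, TRAPPC with 14 of 16, DCAF and INTS with 13 of 15 each, CDC with 28 of 33, VPS with 29 of 35, MRPS with 24 of 29, ATG and PEX with 14 of 17 each, and MED with 23 of 28. The CEP genes encode centrosome proteins, TRAPPC and VPS genes vesicle traffic complexes, PEX genes peroxisome assembly factors and INTS genes the Integrator complex, which processes small nuclear RNAs. In the INTS family the median −log10 p of the genes with a peak was 8.07. At the other end, 9 families with 552 genes in all had no promoter peak: OR, DEFB, PRAMEF, LCE, SPDYE, HTR, MS, KCNK and KLK, among them defensins, late cornified envelope genes, serotonin receptors and kallikreins. The tenth was KRTAP, with 1 of 94. The part of the mapping filter in these low counts was not tested. Zinc finger genes as a group reached 288 of 497 (57.9%, 53.6 to 62.2), led by ZNF768 at 9.65.

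Beyond protein-coding genes, 2586 of 18390 long non-coding RNA genes (14.1%) had a summit within 1000 bp of a start, against 46.0% of protein-coding genes. Of these, 797 had one through a peak with no protein-coding start within that distance. The highest of these was HCG25 in the major histocompatibility region at 10.3, followed by FAM86C2P, a transcribed copy of a duplicated gene family, also at 10.3, and PCGF3-AS1 at 10.2. MALAT1, an abundant nuclear RNA, stood at 8.79. Few small nuclear RNA genes had a summit within 1000 bp, 47 of 1800 (2.61%), with 36 reached by a peak lacking a protein-coding start that near. Among those of the spliceosome, RNU5B-1 at 8.63, RNU5E-1 at 8.597 and RNU5A-1 at 8.18 carried peaks of this kind. So did the RNA polymerase III genes RNU6-1 at 7.84 and RN7SL2 at 7.72, the latter from a miscellaneous class with a summit that near at 40 of 2104 genes (1.90%). Small RNA genes have many near-identical copies, so the copy that a peak belongs to is uncertain. These genes were chosen after their values were seen.

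Of the 25 highest peaks, 24 lay at promoters, counting the start of any annotated transcript. Among these, the MYO1F, HCG25, FAM86C2P and PCGF3-AS1 peaks had no protein-coding start within 1000 bp. The highest peak of the list was at CCM2, a scaffold gene of vascular integrity, with a −log10 p of 11.8. After it, the start near HDGFL2, SF3B2, MYO1F, ESRRA and GPSM3 came PELI1, a ubiquitin ligase of immune signalling, at 10.8, ANKRD10 at 10.6, and STAT3, the transcription factor downstream of interleukin-6, at 10.6, with a summit 92 bp upstream of its start. PHTF2 stood at 10.5, TMEM143 at 10.5 and SLC29A2, a nucleoside transporter gene, at 10.4. Further down followed DRAP1, which represses RNA polymerase II initiation, and the arginine methyltransferase CARM1, both at 10.3, then TSN, GCDH and the cochaperone DNAJC21, all at 10.2. TEDC1 also stood at 10.2, and CDK5RAP3, the histone H3.3 chaperone DAXX and the TTC28-AS1 and PITPNB start region closed the list at 10.1. Chromosomes 19, 11 and 6 supplied 14 of the 25, including MYO1F, CARM1 and GCDH on 19, SF3B2, ESRRA and DRAP1 on 11, and GPSM3, HCG25 and DAXX on 6. In 16 of the 25 the summit lay up to 250 bp upstream of a start, and in TMEM143 it lay 441 bp downstream of one.

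The 15 highest peaks away from promoters had −log10 p values from 10.3 to 9.13. Besides those printed above, they included an intronic peak in LTBP4, 2636 bp inside the nearest coding start, at 9.62, and a peak 6317 bp upstream of the coding start of TLE2, a Groucho corepressor gene, at 9.58. The C19orf67 peak at 9.50, the ELOVL5 peak at 9.39, the MAMSTR peak at 9.29 and the COPZ2 peak at 9.24 lay between 2534 and 10389 bp from the start of a coding gene. An intronic GPC5 peak stood out by its base composition, with a GC content of 34.7% in the 100 bp around its summit, where the other 14 ran from 50.5% to 79.2%. The NCF1C peak at 9.21 lies in a duplicated stretch of chromosome 7 in which reads can fit more than 1 copy. The ZNF287 region and GPRC5C, at 9.17 and 9.13, closed this set.

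Breadth picked out other genes than height. The widest peak, chr3:187738497-187742630 with 4134 bp, lay 1391 bp upstream of the gene ENSG00000285938 and had a −log10 p of 6.93. The next were at TBX2-AS1 with 3742 bp, NEK7 with 3564 bp and MANEA with 3547 bp. EPAS1, which encodes the hypoxia factor HIF-2 alpha, had a peak of 3278 bp, SIN3A one of 3273 bp, LASP1 one of 3190 bp, the SHF region one of 3182 bp and BHLHE40, a clock and hypoxia repressor, one of 3168 bp. The SIN3A peak held the greatest area under the significance curve of the list, 4583. The tenth, of 3167 bp, lay on chromosome 6 15992 bp from HMGN4, within the histone region described below.

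Peaks were chained into clusters while neighbouring summits lay at most 10 kb apart. By this measure 9531 peaks stood alone, 1491 pairs were found, and 488 clusters of 3 or more held 1734 peaks, 12.2% of the list (11.6 to 12.7). Peaks in clusters were not higher than the others, with a median −log10 p of 6.38 against 6.45, and 61.2% of them lay at promoters. The largest cluster, chr19:1240280-1276170, held 14 peaks over ATP5F1D, a subunit of ATP synthase, MIDN, the cold-inducible RNA-binding protein gene CIRBP and FAM174C, 12 of them at promoters. The second, with 11 peaks at chr1:234956952-234979176, had TOMM20, part of the mitochondrial import channel, as its nearest coding gene, with 7 peaks at annotated starts. The third, with 9, spanned HOOK2 and the immediate early gene JUNB.

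Clusters of 8 were found at IRF2BP2, at REXO1, KLF16 and ABHD17A, and at the histone genes H2BC11, H2AC11, H4C9, H2BC12 and H2AC12. A further cluster of 8, chr21:8989233-8999648, lay on the short arm side of chromosome 21 with no promoter peak and TPTE as the nearest coding gene. Its median −log10 p of 7.15 was above the 6.45 of the list. Sequence of this kind is repeated between chromosomes, and the part of read placement in this cluster was not tested. Clusters of 7 lay at ACTB, at HOXA3 to HOXA5, from CRTC2 to RPS27, and at the histone genes H3C4, H2BC7 and H4C5. The 11 clusters with 6 peaks, named after their values were seen, included those at the regulatory genes NR5A2, HES1, FOXA1 with TTC6, FOXA2, NR4A2, ID2 and NFE2L3. In the FOXA1, FOXA2, HES1 and NR5A2 clusters 4 of the 6 peaks lay away from promoters. The peaks of the FOXA2 cluster were low, with a median −log10 p of 5.17, and those of the NFE2L3 cluster high, at 7.63.

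Density differed between chromosomes. It ran from 2.09 peaks per Mb on chromosome 18 to 17.3 on chromosome 19, which is rich in genes, and the highest median −log10 p, 7.003, was also found on chromosome 19. Counted by gene, coverage was more even, from 33.8% of the coding genes on chromosome 21 to 53.5% on chromosome 15. Chromosome 6 carried the most peaks away from promoters, 551, or 3.23 per Mb, below the 4.01 of chromosome 19 and the 3.603 of chromosome 17 and above the 0.659 of chromosome 18, the lowest. Peaks away from promoters made up 48.9% of the peaks of chromosome 13, 45.8% of those of chromosome 6 and 17.9% of those of chromosome 16. The copy number of each chromosome in these cells was not measured here.

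**Figure D3:**
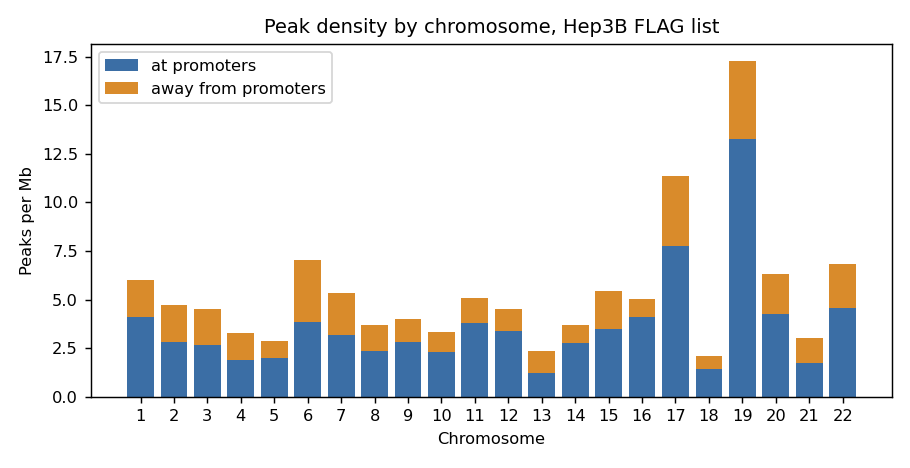
Peaks per Mb of each chromosome, split into peaks at promoters and away from them. Chromosome 19 stands highest at 17.3 per Mb, and the part away from promoters is large on chromosomes 6, 17 and 19.

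The densest part of the genome in this list was the histone region of chromosome 6. In windows of 1 Mb, of which 2186 held a peak with a median of 5, the window chr6:27000001-28000000 held 56 peaks and the one before it 50. Of the 56, 39 lay away from promoters, where chr19:1000001-2000000 had 12 such peaks among 50. The stretch chr6:26000001-29000000 as a whole held 137 peaks, 67 of them away from promoters. Replication-dependent histone genes, which are transcribed in S phase, carried a promoter peak in 32 of 69 cases (46.4%, 35.1 to 58.0), close to all genes. Among them H4C1 stood highest at 8.39. The share of the histone list fell below that of all genes when the window was narrowed to 500 bp, 37.7% against 43.8%, and when peaks were limited to q below 0.01, 40.6% against 42.6%.

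Besides histone genes this stretch is known for the largest group of human tRNA genes, which RNA polymerase III reads from an internal promoter with a conserved B box. The annotation used here lists no tRNA genes, so the peaks were searched for the B box letters GTTCGANTC on both strands. They were present in 17 of the 67 peaks away from promoters in this stretch (25.4%, 16.5 to 36.9) and in 27 of 4750 elsewhere (0.568%, 0.391 to 0.826). Of regions of equal width placed 1000 bp before each peak away from promoters, 0.311% held them (0.189 to 0.513). At promoters 124 of 9430 peaks held them (1.32%), against 0.445% of the regions before these, so that most of the 168 peaks with these letters lay outside chromosome 6, which held 33. From the chromosome 6 stretch, 3 of the highest peaks with these letters, all away from promoters, are shown. Each is given as 80 bp of the plus strand of hg38 around the match, with the B box letters or their reverse complement in capitals.
H3C9P (chr6:26312572-26312651): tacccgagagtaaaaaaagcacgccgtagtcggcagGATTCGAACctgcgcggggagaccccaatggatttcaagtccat
ENSG00000287050 (chr6:26327614-26327693): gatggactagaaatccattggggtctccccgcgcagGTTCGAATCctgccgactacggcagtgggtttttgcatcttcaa
ENSG00000286652 (chr6:27479689-27479768): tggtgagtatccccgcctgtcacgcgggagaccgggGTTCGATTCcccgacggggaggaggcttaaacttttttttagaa
The −log10 p at these 3 peaks was 8.71, 7.78 and 7.47. This search was chosen after the data were seen, and a match is a description of the letters only.

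The other windows with 15 or more peaks away from promoters lay on chromosomes 1, 2, 3, 4, 6 and 7. In chr6:21000001-22000000, beside CDKAL1 and SOX4, 25 of 29 peaks did so, and in chr1:234000001-235000000, around IRF2BP2, 21 of 37. The windows around PELI1 and LGALSL on chromosome 2 held 18, around HES1 on chromosome 3 17, at P3H2 and CLDN1 on the same chromosome 17, at ADGRG6 and HIVEP2 16, and at RBM47 and at TNS3 15 each. SOX4 and HES1 encode factors of progenitor and biliary cells, and both genes also carried a promoter peak, SOX4 at 8.597.

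Peaks were also found at the PROX1 gene itself. Within 200 kb of its start the list held 7 peaks, 5 of them in chr1:213982510-213988894 around the starts of PROX1 and PROX1-AS1. Their −log10 p ran from 5.03 to 6.13, all below the median of the list. The highest of the 7, at 7.12, lay 133586 bp downstream of the nearest PROX1 start. None of the 7 summits lay in a coding exon, the part of the gene that the transgene also carries.

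Short sequences were counted in the 100 bp around each summit, on both strands. CCAAT was present in 18.7% of promoter peaks (1763 of 9430) and in 11.8% of the windows 1000 bp away. In the strongest 25% of the list the share at promoters was 26.6%. The longer form ATTGGC, whose reverse complement contains CCAAT, rose from 2.70% in flanks to 9.53% at promoter summits and 14.0% in the strongest 25%. The ETS letters CCGGAAG were found in 7.95% against 0.716%, the SP/KLF letters GGGGCGGGG in 13.2% against 1.22%, the NRF1 letters GCGCATGC in 2.26% against 0.313%, and the YY1 letters AAGATGGC in 1.46% against 0.408%. These are the usual elements of human promoters. The 100 bp upstream of all 18773 representative starts held CCAAT in 20.6%, CCGGAAG in 8.21%, GGGGCGGGG in 17.1% and GCGCATGC in 2.38%. These shares lay above those at promoter peaks. AAGATGGC went the other way, with 0.511% in the windows before all starts.

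Promoters with and without a peak nevertheless differed when read in the same window before the start. Genes with a promoter peak held CCAAT in 25.2% (24.3 to 26.1) and genes without one in 16.7%. For CCGGAAG the shares were 12.9% and 4.20%, for GCGCATGC 3.79% and 1.17%, for GGGGCGGGG 21.2% and 13.5%, and for the cyclic AMP response element TGACGTCA 2.27% and 1.46%. TGANTCA, the AP-1 site, went the other way with 1.03% and 2.59%. Promoters with a peak are also more often CpG-rich, as given above, and the part of base composition in these shares was not tested.

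At peaks away from promoters most of these letters were rarer than at promoters but still more frequent at summits than in flanks. The shares were 1.39% against 0.332% for CCGGAAG, 1.99% against 0.467% for GGGGCGGGG, 4.13% against 2.74% for ATTGGC, 0.581% against 0.405% for AAGATGGC and 0.332% against 0.0519% for TGACGTCA. CCAAT, at 12.8% against 12.3%, and GCGCATGC, at 0.270% against 0.291%, lay close to their flanks.

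Other letters were more frequent here than at promoter peaks. CACTAG, part of the core of the CTCF site, was present in 7.76% of the peaks away from promoters (374 of 4817), 2.45% of their flanks and 2.46% of promoter peaks. Its longer form CCACTAG, added after the data were seen, was found in 4.05% against 0.571%. TGANTCA was present in 6.73% against 3.12%, with 1.76% at promoter peaks, and the forkhead letters TGTTTAC, read by FOXA factors in liver, in 4.94% against 1.47%. At promoter peaks TGTTTAC was found in 0.753%, below its 1.31% in flanks. GTTAAT, the half-site of the HNF1 factors, was rarer at summits than in flanks. Its shares were 3.82% against 4.35% away from promoters and 1.16% against 3.46% at promoter peaks. In all, 882 peaks away from promoters (18.3%, 17.2 to 19.4) held the CTCF, AP-1 or forkhead letters. AGGTCA, the half-site of nuclear receptors, and TTNNNCAA, a loose form of the C/EBP site, changed little, at 7.74% against 7.39% and 22.7% against 20.2%. The palindrome TTGCGCAA was found in 3 of these peaks, too few to read. Peaks with CCACTAG were narrow, with a median width of 415 bp against 513 bp for all peaks away from promoters, and had a median −log10 p of 6.28.

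The 2 highest peaks away from promoters with CCACTAG and the 2 highest with TGTTTAC are shown as 60 bp of the plus strand of hg38 around the match, which stands in capitals in either direction.
MIR181B2 (chr9:124712129-124712188): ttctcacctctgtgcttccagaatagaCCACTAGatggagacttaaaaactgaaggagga
ENSG00000287002 (chr6:7243632-7243691): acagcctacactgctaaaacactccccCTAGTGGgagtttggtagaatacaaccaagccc
ENSG00000220685 (chr6:5068374-5068433): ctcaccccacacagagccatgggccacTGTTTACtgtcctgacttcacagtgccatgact
ENSG00000272362 (chr1:234643357-234643416): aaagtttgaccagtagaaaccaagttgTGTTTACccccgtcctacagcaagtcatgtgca
The first lay in an intron on chromosome 9, 59146 bp from the start of NR6A1 and nearest to MIR181B2, at 8.44, and the second 57698 bp from SSR1 at 8.24. The forkhead pair lay on chromosome 6 upstream of PPP1R3G at 8.89 and upstream of IRF2BP2 at 8.77, the latter in the dense window of chromosome 1 described above.

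**Figure D4:**
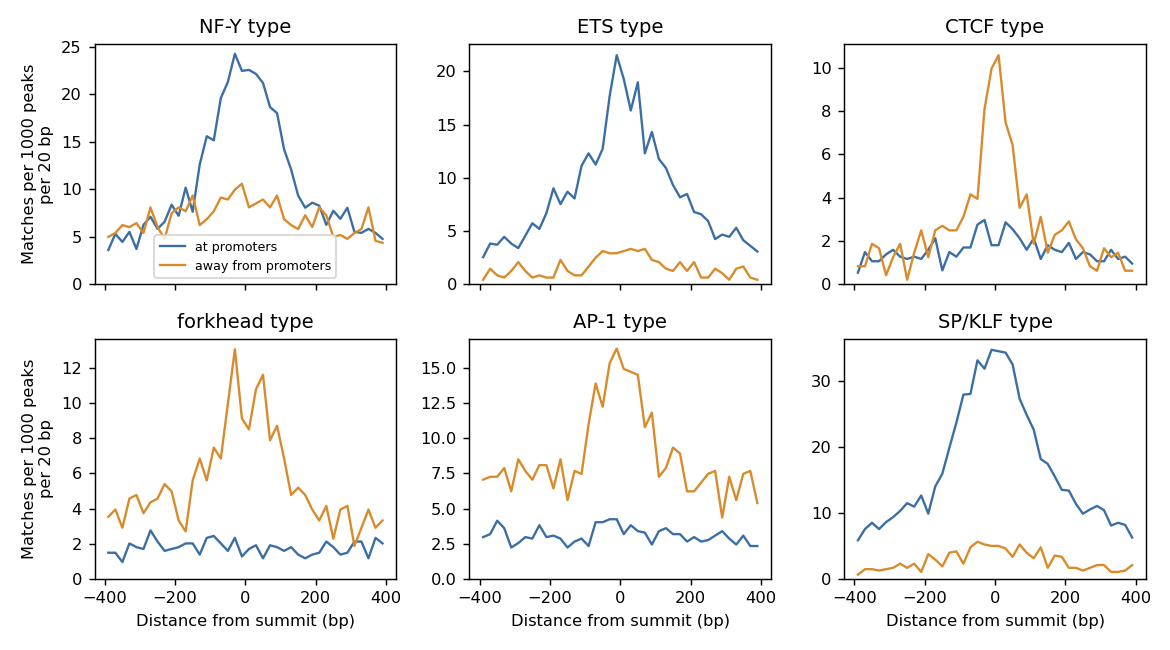
Matches per 1000 peaks in bins of 20 bp by distance from the summit, for peaks at promoters and away from them, with a separate vertical scale in each panel. Matches of the CTCF type rose to 10.6 per 1000 peaks at the summits away from promoters from 0.830 at the left edge, while those of the NF-Y and ETS types rose to 24.3 and 21.5 at promoter summits.

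A PROX1 consensus written from general knowledge was searched with mismatches allowed, so its shares cannot be set beside those of the exact letters above. With up to 2 mismatches it was present in 1.36% of the promoter windows (128 of 9430) and in 1.22% of the others, below the 1.83% and 1.65% of the respective flanks and the 1.61% of all promoters. With up to 1 mismatch it was found in 9 promoter peaks and 5 others. The study instead mapped a PROX1 binding motif from a database onto the genome. It reports more Hep3B peaks with this motif than the whole list described here holds, so how its set relates to this list is unknown. The motif scan of the study was not repeated here, so the shares of the consensus do not show whether the peaks lack its motif. The shorter half-site AAGNCG was more frequent at summits than in flanks, with 17.3% against 7.87% at promoters and 6.04% against 4.40% elsewhere. Promoters of genes with a peak held it in 18.9% and those without in 11.9%, and all promoters in 15.2%. AAGNCG contains a CpG, so its frequency moves with base composition, and its part was not tested.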

How the data were processed

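CUT&RUN was performed in 3 Hep3B FLAG and 3 Hep3B IgG samples. According to the methods and the submitters' processing notes, the authors removed adapters from 40 bp read pairs (Trim Galore 0.6.6), mapped them to hg38 (Bowtie2 2.4.2) and called consensus peaks over the FLAG replicates with Genrich 0.6.1 (mapping quality 30, duplicates and mitochondrial reads removed, minimum length 5 bp, q below 0.3). The study describes the sites as identified relative to IgG, but the command names no control. The deposited score is capped at 1000 and was not used. As deposited, the signal sums the significance over each peak and has a floor of 200. As deposited, −log10 p and −log10 q refer to the summit, without normalization to other lists. The lowest −log10 q listed was 1.22, and 12479 peaks had q below 0.01. The effects of the duplicate and mapping filters were not tested. The depth of each sample is unknown.

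From the list, summits were compared with GENCODE 44 starts and the hg38 sequence (Python 3.11.15, pandas 2.3.3, pysam 0.24.0). The functions that assign summits to starts were checked on simulated summits. The genes, gene lists and short sequences were written from general knowledge, and the members and lists were chosen with earlier results of these data known. Named genes followed a rule: the 25 highest peaks, the 15 highest away from promoters, the 10 widest, the 10 largest clusters with ties, up to 4 of the highest members and the members without a peak of each list, the 10 highest and 10 lowest symbol families of at least 15 genes, and genes the study names (MYC, PROX1, PPARG, PRRX1, SOX9, KRT19). Other genes were named after their values were seen, as were CpG classes, head-to-head pairs, 1 Mb windows, non-coding genes and the longer CTCF letters, PROX1 half-site and B box. Alternatives were other promoter windows, start sets, cluster gaps, sequence windows and stricter peak limits. The 2 mouse lists were used only to count peaks. A few named genes and 1 sequence are not reported here.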

Additional observations from a re-analysis of the deposited data

Results flagged for a closer look

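Peaks of the Hep3B list outside chromosomes 1 to 22 were set aside because they are no members, and their signal enters no comparison above. Chromosome X held 114 peaks, with a median −log10 p of 5.92 and a highest value of 7.97. Unplaced contigs held 8 peaks, with a higher median of 8.62, and the part of read placement on these contigs was not tested.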

How the results depend on the processing

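The share of peaks at promoters, 66.2%, became 61.5% with starts within 500 bp, 70.7% within 2000 bp, 58.1% with protein-coding starts only, 67.8% with q below 0.01 and 82.7% with an area of at least 500. The number of protein-coding genes with a promoter peak, 8630, was between 8006 and 8864 under 4 alternatives and dropped to 5323 with an area of at least 500, which leaves 6209 peaks. The share of peaks in clusters, 12.2%, depended on the gap, with 6.78% at 5 kb and 23.5% at 20 kb, and was 9.52% with q below 0.01 and 4.77% with an area of at least 500, where fewer peaks remain to be chained. All 141 recomputed shares of gene lists stayed within the interval of the main value, and the histone list alone changed its side of the share of all genes. The ratio of summit to flank shares crossed 1 for 2 sequences. For the NRF1 letters away from promoters it was 0.929 and became 1.43 with windows of 50 bp and 1.04 with 200 bp, on few matches. For CACTAG at promoters it was 1.06 and became 0.951 with 50 bp. The PROX1 consensus with up to 1 mismatch at promoters had a ratio of 1, which became 1.5 and 1.09. No paired analysis was possible because the 3 FLAG samples were pooled into 1 list. For the same reason no sample could be left out, so no value here shows how far samples differ.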
